A study of Mus musculus with 7 samples.

Results

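The genes described here encode secreted messengers of inflammation in mouse kidney: the chemokines Ccl2, Ccl3, Cxcl1, Cxcl10, Cxcl12 and Cx3cl1, and the interleukins Il1b, Il6, Il18 and Il34. The rule took them by name and used no measured value, though earlier results of these data were known when it was written, and 9 of the 10 symbols were found among the 17537 genes of the expression table. Il6 was not among the rows and was not analysed here. Of the 9, 7 passed a filter of at least 1 CPM (reads scaled to a common library size) in at least 2 libraries, which 13976 genes passed in all, while Ccl3 and Cxcl1 lay below it.

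The study asked which changes in kidney gene expression persist after high blood glucose has been lowered. PolyA-selected, strand-specific RNA of kidney was sequenced from 7 mice on a C57BL/6 background, with 1 library per mouse. The groups were 3 nondiabetic controls (C, replicates 2, 8 and 9), which received the citrate buffer alone, 2 mice with untreated diabetes for the whole period (DM-22) and 2 with diabetes and a blocker of the glucose transporter SGLT2 (DM+SGLT2i), each numbered 1 and 2. Streptozotocin, which kills the insulin-producing beta cells, was injected at 60 mg/kg on 5 days to make mice diabetic, in animals that the labels give as male and 8 to 10 weeks old. The methods of the study give both sexes. DM+SGLT2i mice drank dapagliflozin, which blocks glucose reabsorption in the proximal tubule, at 25 mg/kg for 6 weeks from week 16, and the experiment ended at week 22. Streptozotocin acts as a model through loss of beta cells, so that the diabetic groups lack insulin rather than resist it. The libraries hold all cells of the kidney, and in such bulk tissue fewer cells of a type and less RNA per cell cannot be told apart.

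Chemokines are small proteins that bind receptors on leukocytes and guide them along a gradient, and their names give the spacing of the first cysteines (CC, CXC, CX3C). Inflammatory chemokines such as Cxcl1, Cxcl10 and Ccl2 are known to be switched on by NF-kB, interferon or both, whereas Cxcl12 is made steadily by stromal cells and Cx3cl1, or fractalkine, is held on the membrane of endothelium and epithelium until proteases release it. Interleukin 1 beta and interleukin 18 are made as precursors that caspase-1 cuts, so that their mRNA is not a measure of the active protein. Interleukin 34 is a ligand of the macrophage receptor Csf1r and is made by tubular epithelium.

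The sequence before the transcription start is given for Cxcl10 and Cxcl1, whose highest values came from 1 control library each, and for Cxcl12 as an abundant and more even chemokine. RefSeq windows (build GRCm38.p6) were held for 8 of the 10 genes, Il6 included, and not for Ccl2 or Il34. The Cxcl10 window covers the 250 bases before the start, at chr5:92348890-92349139 on the minus strand. The Cxcl1 window covers the 150 bases before the start, at chr5:90891095-90891244 on the plus strand, and the Cxcl12 window the same length at chr6:117168385-117168534 on the plus strand. Each is written 5′ to 3′ on the gene's strand, and capitals mark matches to the NF-kB, interferon response element and AP-1 motifs.
Cxcl10: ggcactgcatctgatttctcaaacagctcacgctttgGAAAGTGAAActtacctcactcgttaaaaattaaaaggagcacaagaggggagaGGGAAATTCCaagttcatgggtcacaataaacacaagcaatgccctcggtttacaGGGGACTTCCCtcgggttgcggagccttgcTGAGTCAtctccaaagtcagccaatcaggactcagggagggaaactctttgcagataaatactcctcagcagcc
Cxcl1: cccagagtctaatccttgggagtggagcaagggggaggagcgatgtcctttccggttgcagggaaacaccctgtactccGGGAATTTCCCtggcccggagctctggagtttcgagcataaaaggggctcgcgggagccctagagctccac
Cxcl12: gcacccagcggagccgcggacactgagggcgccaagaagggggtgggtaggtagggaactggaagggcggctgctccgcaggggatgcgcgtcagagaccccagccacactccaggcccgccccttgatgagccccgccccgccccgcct

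The motifs were searched on both strands of the 250 bases before each start, with overlapping matches counted. The NF-kB motif of 10 letters was found in 3 genes (Cxcl1, Cxcl10 and Il6) and in 7.25% of all 32851 RefSeq windows of this length. The 3 NF-kB matches of Cxcl10 begin 159, 104 and 103 bases before the start, the last 2 overlapping, and the 2 of Cxcl1 begin 71 and 70 bases before it. The interferon response element (GAAA, any 2 bases and GAAA again) was found in Cxcl10 alone among the 8 genes, 213 bases before the start, and in 2.98% of all windows. The AP-1 motif (TGANTCA) was found in Cxcl10, 74 bases before the start, and in Il6, against 6.75% of all windows. The letters TATAAA lay in the windows of Il1b, Cx3cl1 and Il18, and in 12.4% of all windows. They began 31 bases before the start in Il1b, 6 in Cx3cl1 and 175 in Il18, there on the opposite strand. Only the match of Il1b lay near the position of a textbook TATA box. None of the first 3 motifs was found in the Cxcl12 window, nor in those of Ccl3, Cx3cl1, Il1b and Il18. These matches describe the letters only.

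Between 46456125 and 56541594 reads per library fell on listed genes, so that 1 read was worth 0.0180 to 0.0231 CPM, and 3 reads, taken as the floor, 0.0540 to 0.0694 CPM. Control replicate 2 stood apart from control replicates 8 and 9. The summed level of the 12 macrophage markers was 620 CPM in it, against 162 and 164 CPM in the other controls, 321 and 188 CPM in DM-22 and 326 and 371 CPM in DM+SGLT2i. The summed level of the 7 tubular injury genes was 6239 CPM in it, against 931 and 762 CPM in the other controls and 1827 to 3095 CPM in the diabetic mice. The 8 proximal tubule markers, which define the main cell type of kidney cortex, summed to between 7341 CPM in that library and 17158 CPM in control replicate 8, so that the labelled tissue was borne out in all 7 libraries. Control replicate 9 stood apart in another way, with 3043 CPM for the 9 immediate early genes against 125 to 285 CPM in the other 6 libraries. Results are therefore given with all 3 controls and without control replicate 2. The diabetic libraries also differed within groups. Adipose markers summed to 402 and 53.0 CPM in DM+SGLT2i replicates 1 and 2. In DM-22 replicates 1 and 2, inner medulla and urothelium markers summed to 279 and 4.16 CPM. Thick ascending limb and distal tubule markers summed there to 12860 and 4509 CPM, and podocyte markers to 241 and 633 CPM. The part of these differences in the results was not tested.

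The levels of the 9 genes spanned a wide range, as the plot of level per length shows. Per kilobase of exon, Cx3cl1 was highest at a mean of 32.1 ± 6.76 CPM per kb (SD, n = 7), followed by Cxcl12 at 18.9 ± 4.43, Il34 at 11.3 ± 3.76 and Cxcl10 at 3.75 ± 2.14 CPM per kb. Il18, Ccl2, Il1b, Cxcl1 and Ccl3 followed at means of 1.27, 1.18, 0.749, 0.430 and 0.262 CPM per kb. Only Cx3cl1 was separated from the next gene in this order: its lowest library (24.4 CPM per kb) lay just above the highest library of Cxcl12 (24.3 CPM per kb), whereas the ranges of every other pair of neighbours overlapped. This order rests on the length used, all annotated exon bases of a gene, at 8176 for Cxcl12 and 3930 for Cx3cl1. Without division by length, Cxcl12 had the higher mean (154 against 126 CPM) and the ranges of both genes overlapped. Cx3cl1, Cxcl12 and Il34, known from stroma, endothelium or epithelium, thus had the highest means here. Il18, also made by tubular epithelium, had a mean close to that of Ccl2 and below that of the inducible Cxcl10.

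**Figure D1:**
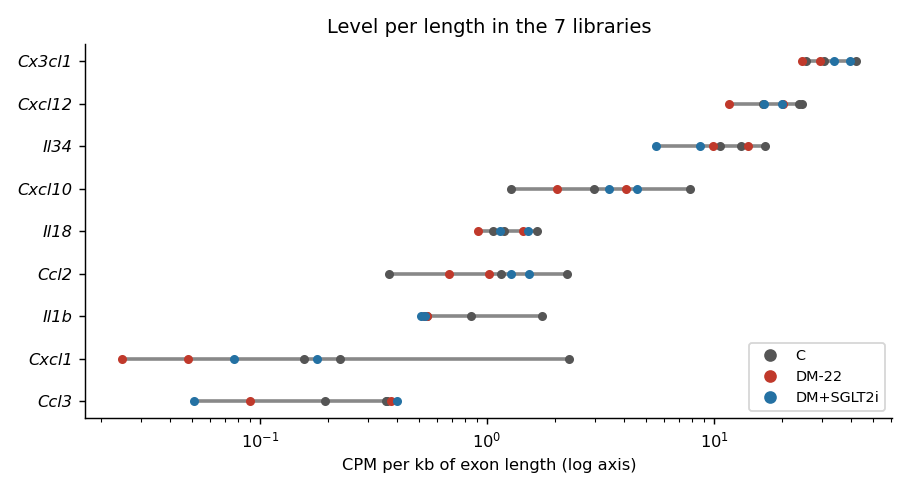
Level of each of the 9 genes per kilobase of exon length (CPM per kb, log axis) in the 7 libraries, with points coloured by group and a line from the lowest to the highest library. Cx3cl1, Cxcl12 and Il34 lie above 5 CPM per kb in every library, and Ccl3 stays below 0.401 CPM per kb.

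Ccl2 (ENSMUSG00000035385, chr11:82035571-82037453), the ligand that draws Ccr2-bearing monocytes out of the blood, was measured at 2.57, 0.421 and 1.30 CPM in control replicates 2, 8 and 9. It was at 0.774 and 1.16 CPM in DM-22 and at 1.74 and 1.45 CPM in DM+SGLT2i. The controls therefore spanned both diabetic groups, holding the highest and the lowest library, while both DM+SGLT2i libraries lay above both DM-22 libraries. The log2 fold change was −0.24 ± 0.51 (SE) for DM-22 versus C and 0.52 ± 0.55 for DM+SGLT2i versus DM-22, with adjusted p of 0.913 and 0.881 (limma, Benjamini-Hochberg adjustment, as throughout). Without control replicate 2 the first of these turned to 0.17 ± 0.39. Its receptor Ccr2 was at 2.84 and 6.64 CPM in DM-22 and at 11.9 and 7.93 CPM in DM+SGLT2i, with the controls between 5.92 and 11.6 CPM.

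Ccl3 (ENSMUSG00000000982, chr11:83647844-83649355), a macrophage chemokine read by Ccr1, was close to the floor. It had 15, 7 and 13 reads in the controls (0.275, 0.147 and 0.278 CPM), 16 and 3 in DM-22 (0.288 and 0.0694 CPM) and 2 and 17 in DM+SGLT2i (0.0391 and 0.307 CPM). The 2 libraries of each diabetic group differed more than the group means did, and all groups overlapped. The log2 fold changes were −0.13 ± 0.23 for DM-22 and −0.15 ± 0.23 for DM+SGLT2i versus C in a fit of all listed genes without the filter.

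Cxcl1 (ENSMUSG00000029380, chr5:90891241-90893115), the neutrophil attractant whose window is given above, differed most between libraries, its highest CPM being 93.3 times its lowest. It was at 0.293, 0.421 and 4.32 CPM in control replicates 2, 8 and 9, which is 16, 20 and 202 reads. In DM-22 it was at 0.0900 and 0.0462 CPM (5 and 2 reads, the second below the floor of 3) and in DM+SGLT2i at 0.333 and 0.145 CPM (17 and 8 reads). Both DM-22 libraries lay below every control and every DM+SGLT2i library, and control replicate 9 lay far above all others. In the fit without the filter the log2 fold change for DM-22 versus C was −1.42 ± 0.74 (unadjusted p = 0.098, adjusted p = 0.831), which became −1.89 ± 0.72 without control replicate 2 (unadjusted p = 0.040, adjusted p = 0.205) and −0.59 ± 0.20 without control replicate 9. The size of this difference thus rested in large part on control replicate 9, the library with the high immediate early genes. Without that library the direction stayed and the standard error was smaller too (adjusted p = 0.9999). Why Cxcl1 was high in that library was not tested. The receptor Cxcr2 was at 0.0903 to 0.235 CPM in all 7 libraries, and of the 10 neutrophil markers 5 were listed, at a summed 2.23 to 6.19 CPM, with Ly6g, Mpo and Elane not among the genes listed.

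Cxcl10 (ENSMUSG00000034855, chr5:92346638-92348889), an interferon-induced attractant of T cells through Cxcr3, was at 17.7, 2.86 and 6.67 CPM in control replicates 2, 8 and 9. It was at 9.22 and 4.58 CPM in DM-22 and at 7.73 and 10.3 CPM in DM+SGLT2i. Control replicate 2 was the highest library and control replicate 8 the lowest, so that the controls spanned both diabetic groups. Versus C, DM-22 had a log2 fold change of −0.11 ± 0.68 and DM+SGLT2i one of 0.31 ± 0.68, and without control replicate 2 these became 0.52 ± 0.46 (adjusted p = 0.505) and 0.94 ± 0.46 (adjusted p = 0.344). The 16 listed interferon response genes moved with it by library: their sum was 636 CPM in control replicate 2, 158 and 172 CPM in the other controls, 350 and 175 CPM in DM-22, and 281 and 330 CPM in DM+SGLT2i. Control replicate 2, DM-22 replicate 1 and the DM+SGLT2i libraries were the 4 highest in both measures.

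Cxcl12 (ENSMUSG00000061353, chr6:117168535-117181367), the stromal ligand of Cxcr4 and of the scavenger receptor Ackr3, was at 193, 134 and 198 CPM in the controls, 164 and 95.0 CPM in DM-22 and 135 and 162 CPM in DM+SGLT2i. The lowest value was that of DM-22 replicate 2, and all groups overlapped. The log2 fold change was −0.47 ± 0.29 for DM-22 versus C (adjusted p = 0.804) and −0.22 ± 0.29 for DM+SGLT2i versus C (adjusted p = 0.9997), with a DM-22 value of −0.07 ± 0.28 when DM-22 replicate 2 was left out. Ackr3, which clears Cxcl12, stood at 68.3 and 49.6 CPM in DM-22 against 39.9, 42.3 and 34.2 CPM in the controls, without overlap, at a log2 fold change of 0.59 ± 0.21 and an unadjusted p of 0.031 that did not hold after adjustment (0.804). Cxcr4 was at 3.55 and 3.35 CPM in DM-22, below the controls at 3.92 to 6.56 CPM (log2 fold change −0.50, unadjusted p = 0.084).

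Cx3cl1 (ENSMUSG00000031778, chr8:94772009-94782427), the membrane-bound ligand of Cx3cr1 on monocytes and macrophages, varied least, by 1.73 times between its highest and lowest library. It was at 165, 99.6 and 120 CPM in control replicates 2, 8 and 9, at 95.8 and 115 CPM in DM-22 and at 132 and 155 CPM in DM+SGLT2i. Both DM+SGLT2i libraries lay above both DM-22 libraries and above control replicates 8 and 9, but below control replicate 2. The log2 fold change was 0.45 ± 0.26 for DM+SGLT2i versus DM-22 (unadjusted p = 0.123, adjusted p = 0.881) and 0.19 ± 0.23 for DM+SGLT2i versus C. Without control replicate 2 the second became 0.39 ± 0.17 (unadjusted p = 0.058, adjusted p = 0.292), and the first, whose libraries stayed the same, had an unadjusted p of 0.036 (adjusted p = 0.463) because the controls enter the shared spread. Cx3cr1 had its highest value, 25.9 CPM, in control replicate 2 and was at 7.58 and 8.27 CPM in the other controls, 13.1 and 13.4 CPM in DM-22 and 18.2 and 19.0 CPM in DM+SGLT2i. The sheddases Adam10 and Adam17, which release Cx3cl1 from the membrane, were at 81.4 to 90.9 CPM and 26.9 to 38.1 CPM over the 7 libraries.

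**Figure D2:**
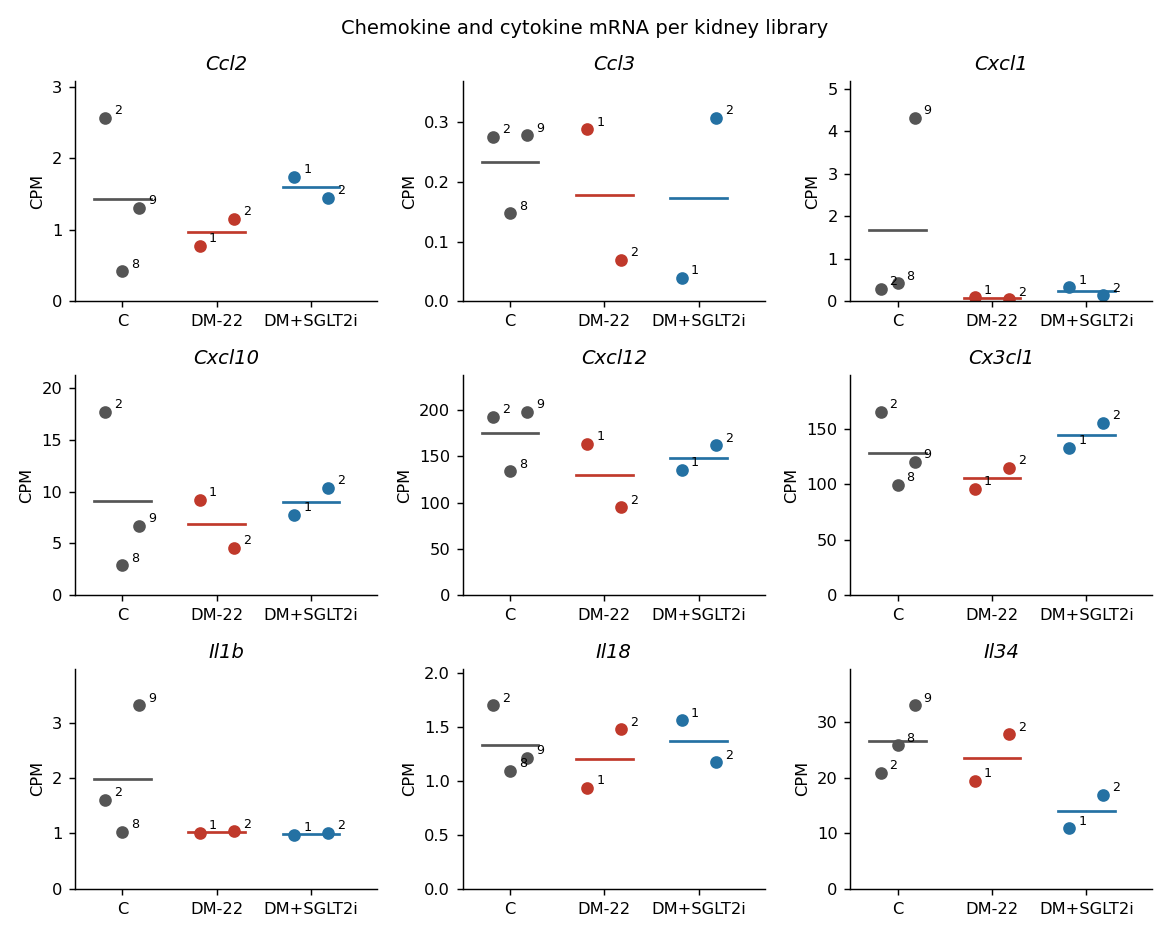
CPM of each of the 9 genes (vertical axis, from 0) in every library by group, with the replicate number beside each point and a line at the group mean. Control replicate 9 is the top point for Cxcl1 (4.32 CPM) and Il1b (3.31 CPM), control replicate 2 for Cxcl10 (17.7 CPM) and Ccl2 (2.57 CPM), and both DM+SGLT2i libraries are the lowest for Il34 (10.9 and 16.9 CPM).

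Il1b (ENSMUSG00000027398, chr2:129364570-129371139), the interleukin 1 beta precursor, was at 1.61, 1.03 and 3.31 CPM in control replicates 2, 8 and 9. The 4 diabetic libraries lay close together, at 1.01 and 1.04 CPM in DM-22 and 0.978 and 1.01 CPM in DM+SGLT2i, beside control replicate 8. DM+SGLT2i did not overlap with the controls, but its higher library lay just under control replicate 8, where the value came from 49 reads. Versus C, the log2 fold changes of Il1b were −0.60 ± 0.41 (DM-22) and −0.63 ± 0.41 (DM+SGLT2i) (adjusted p = 0.804 and 0.9997), and −0.24 ± 0.34 and −0.27 ± 0.34 without control replicate 9. The receptor Il1r1 was at 6.06 to 12.0 CPM over the 7 libraries, the decoy receptor Il1r2 at 0.0231 to 0.270 CPM, and the antagonist Il1rn at 1.47 CPM in control replicate 2, 0 and 0.128 CPM in the other controls, and 0.126 to 0.795 CPM in the diabetic mice.

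Il18 (ENSMUSG00000039217, chr9:50554827-50581840), the related interleukin made by tubular epithelium and macrophages, was at 1.70, 1.09 and 1.22 CPM in the controls, 0.936 and 1.48 CPM in DM-22 and 1.57 and 1.17 CPM in DM+SGLT2i. All groups overlapped. The log2 fold changes were −0.11 ± 0.29, 0.03 ± 0.29 and 0.14 ± 0.32 for DM-22 versus C, DM+SGLT2i versus C and DM+SGLT2i versus DM-22, each smaller than its standard error. Il18rap, the signalling chain of its receptor, was at 0.540 and 0.301 CPM in DM-22 against 1.12, 1.01 and 1.18 CPM in the controls, without overlap (log2 fold change −0.81, unadjusted p = 0.035, adjusted p = 0.804). Of these 2 groups only the controls reached 1 CPM, so that Il18rap met the filter there through the group where it was high. Its p-values cannot therefore be taken as support for a difference. The inhibitor Il18bp had its highest value in control replicate 2 (9.03 CPM) and was at 2.37 to 5.62 CPM in the other 6 libraries.

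Of the 11 processing enzymes and inflammasome genes, 1 passed an unadjusted p of 0.05 in any comparison with all 3 controls: Casp8, at 33.9 and 36.7 CPM in DM+SGLT2i against 30.3, 24.4 and 26.9 CPM in the controls (log2 fold change 0.37, unadjusted p = 0.037, adjusted p = 0.9997). Over all genes tested, 1.08% passed that unadjusted threshold in DM+SGLT2i versus C. Casp1, which cuts both interleukin precursors, was at 1.12 to 2.51 CPM and Nlrp3, a sensor of the inflammasome, at 0.385 to 1.35 CPM, and the controls overlapped with both diabetic groups for each. Casp1 did not overlap between DM-22 (1.21 and 1.18 CPM) and DM+SGLT2i (1.31 and 1.75 CPM), with an unadjusted p of 0.508. Mmp2, a protease that trims Cxcl12 and Ccl7, was at 4.82 and 4.32 CPM in DM-22 and at 20.7 and 20.3 CPM in DM+SGLT2i, but at 39.2 CPM in control replicate 2 and 4.44 and 5.21 CPM in the other controls. Its log2 fold change for DM+SGLT2i versus C was 1.01 ± 0.86 with all controls (adjusted p = 0.9997) and 1.98 ± 0.16 without control replicate 2 (adjusted p = 0.0451), so that the call rested on which controls were used. In that second fit 5 of the 11 genes passed the unadjusted threshold, all higher, beside 17.9% of all genes tested. The same libraries were high for the 8 fibroblast and pericyte markers, whose sum was 787 CPM in control replicate 2, 776 and 496 CPM in DM+SGLT2i, and 186 to 290 CPM in the other 4.

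Il34 (ENSMUSG00000031750, chr8:110741829-110805924) was the gene of the 9 with the smallest p-value in both comparisons of DM+SGLT2i when all 3 controls were used. Cx3cl1 had the smallest one versus DM-22 without control replicate 2 (unadjusted p = 0.036, against 0.037 for Il34). Il34 was at 20.9, 25.8 and 33.0 CPM in control replicates 2, 8 and 9, at 19.4 and 27.8 CPM in DM-22 and at 10.9 and 16.9 CPM in DM+SGLT2i. Both DM+SGLT2i libraries lay below all 5 others, and DM-22 overlapped with the controls. In DM+SGLT2i the log2 fold change was −0.92 ± 0.28 versus C (unadjusted p = 0.016, adjusted p = 0.9997) and −0.75 ± 0.31 versus DM-22 (unadjusted p = 0.049, adjusted p = 0.881), so that neither difference passed the adjusted threshold. Without control replicate 2 the first was −1.07 ± 0.28 (adjusted p = 0.161), the smallest adjusted p of any of the 9 genes in any setting tried. Leaving out DM+SGLT2i replicate 1, the lower of the 2, gave −0.61 ± 0.33 versus C and −0.44 ± 0.36 versus DM-22.

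The partners of Il34 did not share this order. Csf1r, the receptor that Il34 and Csf1 both use, was at 95.4, 77.4 and 68.8 CPM in the controls, 110 and 37.3 CPM in DM-22 and 75.1 and 84.9 CPM in DM+SGLT2i, with a log2 fold change of 0.00 versus C and 0.32 versus DM-22. Csf1, the other ligand, was at 26.5, 10.0 and 12.5 CPM in the controls, 14.1 and 11.5 CPM in DM-22 and 18.2 and 19.5 CPM in DM+SGLT2i. Both DM+SGLT2i libraries were thus above both DM-22 libraries for Csf1 and below them for Il34, and neither difference passed adjustment. Ptprz1 and Sdc1, further partners of Il34, were at 0.126 to 0.358 CPM and at 13.5 to 47.5 CPM.

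Il6 not having been analysed, its pathway is given through the receptors. Il6ra, the ligand-binding chain, was at 7.22 and 5.56 CPM in DM+SGLT2i, above DM-22 at 3.76 and 3.65 CPM and the controls at 4.06 to 5.35 CPM. Versus DM-22 this was a log2 fold change of 0.70 (unadjusted p = 0.020, adjusted p = 0.881). Il6st, the shared signalling chain gp130, was abundant and even, at 198 to 243 CPM.

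Over the 9 listed genes, the map of deviations from the median shows single libraries that stood out. For Il34, both DM+SGLT2i libraries were the lowest. The highest library was control replicate 2 for 4 genes (Ccl2, Cxcl10, Cx3cl1 and Il18), control replicate 9 for 4 (Cxcl1, Il1b, Cxcl12 and Il34) and DM+SGLT2i replicate 2 for 1 (Ccl3). Control replicate 2 lay 1.15 above the 7-library median for Cxcl10 and 0.77 above it for Ccl2 on the log2 scale, beside 1.18 for the sum of interferon response genes and 0.95 for the sum of macrophage markers. Control replicate 9 lay 2.60 above the median for Cxcl1 and 1.32 above it for Il1b, beside 3.88 for the sum of immediate early genes, while its macrophage marker sum lay 0.97 below the median. The part of these cell type and immediate early signals in the chemokine values was not tested.

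**Figure D3:**
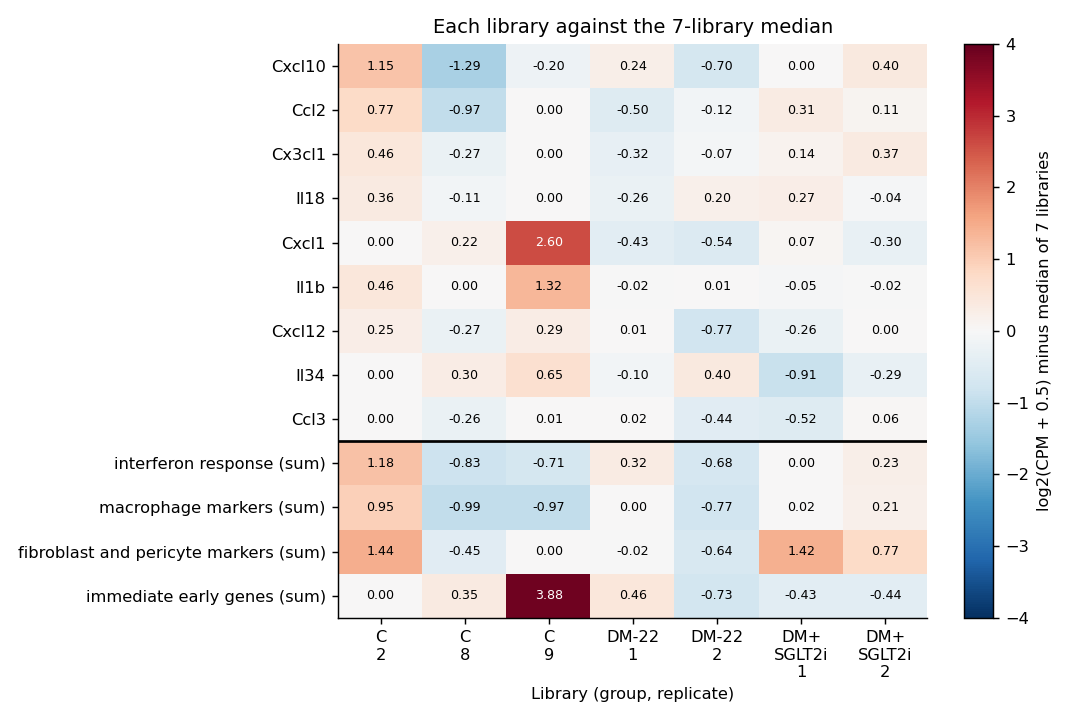
Deviation of log2(CPM + 0.5) from the median of the 7 libraries for the 9 genes (above the line) and for the summed CPM of 4 gene lists (below it), with 1 column per library, red for higher and blue for lower. Control replicate 2 is high for Cxcl10 (1.15) and the interferon response sum (1.18), and control replicate 9 for Cxcl1 (2.60) and the immediate early gene sum (3.88).

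In DM-22 versus C, the question being which of these genes differ in lasting diabetes, 0 of the 7 genes tested passed an adjusted p of 0.05 in limma or in its voom variant, and 0 passed an unadjusted p of 0.05 in either. Over all 13976 genes tested, 0.00% passed the adjusted and 4.47% the unadjusted threshold in limma. All 7 log2 fold changes were negative, with a median of −0.24 against 0.00 over all genes tested. Without control replicate 2, 3 were positive and 4 negative, the median was −0.06, and the count of genes passing was again 0 at both thresholds, against 0.0143% of all genes at the adjusted and 25.2% at the unadjusted threshold. The groups did not overlap for 1 of the 9 listed genes, Cxcl1, with or without that control, beside 20.1% of all 17537 listed genes with all controls and 56.1% without control replicate 2.

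In DM+SGLT2i versus C, which asks what remains after glucose lowering, 0 of 7 passed the adjusted threshold in limma or voom, and 1, Il34, passed the unadjusted one in both. Over all genes tested, 0.00% passed the adjusted and 1.08% the unadjusted threshold. Of the 7 log2 fold changes, 4 were positive and 3 negative, with a median of 0.03. Without control replicate 2 the median was 0.17 and the count passing was again 0 adjusted and 1 unadjusted, against 0.122% and 17.9% of all genes. The groups did not overlap for 2 of the 9 listed genes, Il34 and Il1b, both lower, beside 13.0% of all genes. Without control replicate 2 this count was 6, with Ccl2, Cxcl10 and Cx3cl1 higher and Cxcl1, Il1b and Il34 lower, beside 59.0% of all genes.

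In DM+SGLT2i versus DM-22, which asks what the inhibitor altered in diabetic mice, 0 of 7 passed the adjusted threshold in limma or voom, and 1, Il34, passed the unadjusted one in limma and 0 in voom. Over all genes tested, 0.00% passed the adjusted and 3.91% the unadjusted threshold. The log2 fold change was positive for 5 genes and negative for Il34 and Il1b, with a median of 0.25 against 0.00 over all genes tested. The groups did not overlap for 4 of the 9 listed genes, with Ccl2, Cxcl1 and Cx3cl1 higher and Il34 lower in DM+SGLT2i, beside 40.8% of all genes. These 3 comparisons share libraries, so that they are not independent of each other.

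**Figure D4:**
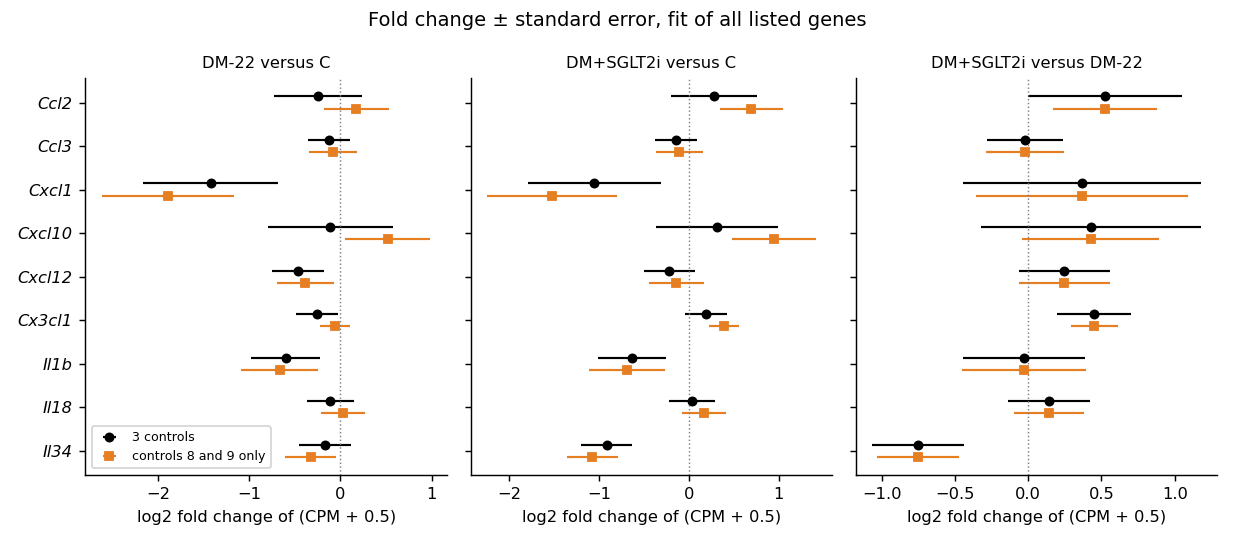
Log2 fold change of CPM + 0.5 (horizontal axis) with its standard error for the 9 genes in the 3 comparisons, from the fit of all listed genes without the filter, with all 3 controls (black circles) and with control replicates 8 and 9 only (orange squares). Il34 lies at −0.92 in DM+SGLT2i versus C, and Cxcl10 moves from 0.31 to 0.94 in that comparison when control replicate 2 is left out.

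The other genes of these pathways were counted in the same fits, and 0 passed the adjusted threshold in any of the 3 comparisons with all controls. 1 of them, Mmp2, passed it in DM+SGLT2i versus C without control replicate 2. Of the 22 receptors and partners, 16 were tested: 2 passed an unadjusted p of 0.05 in DM-22 versus C (Ackr3 higher, Il18rap lower), 0 in DM+SGLT2i versus C and 1 in DM+SGLT2i versus DM-22 (Il6ra higher). Their median log2 fold change was −0.12, 0.32 and 0.45 in the 3 comparisons in that order. Over all genes tested, 4.47%, 1.08% and 3.91% passed the unadjusted threshold in these comparisons, in either direction. Il18rap passed the filter through the controls, as given above. Without control replicate 2, DM-22 versus C had 4 higher and 1 lower at the unadjusted threshold (median 0.09), beside 25.2% of all genes. In DM+SGLT2i versus C without that control, 5 were higher and 0 lower (median 0.64), beside 17.9% of all genes. Ccr1 and Cx3cr1, receptors found on monocytes and macrophages, were highest in control replicate 2, at 1.48 and 25.9 CPM. Other receptors of these cells were not: Ccr2 was highest in a DM+SGLT2i library and Csf1r in a DM-22 library.

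Of 30 other chemokines, 26 were listed and 14 tested. Over all genes tested with all controls, 4.47% passed the unadjusted threshold in DM-22 versus C and 3.91% in DM+SGLT2i versus DM-22. In DM-22 versus C, 2 passed the unadjusted threshold: Ppbp, a platelet chemokine, was higher (1.06 and 1.25 CPM against 0.171 to 0.632 CPM in the controls, log2 fold change 0.99, unadjusted p = 0.025), and Ccl25, an attractant of gut-homing lymphocytes, was lower (5.06 and 4.97 CPM against 6.34 to 8.85 CPM, log2 fold change −0.58, unadjusted p = 0.022). Ppbp was at 0.294 and 0.217 CPM in DM+SGLT2i, below DM-22 at a log2 fold change of −1.13 (unadjusted p = 0.021, adjusted p = 0.881). Only the 2 DM-22 libraries of Ppbp reached 1 CPM, so that it passed the filter through the group where it was high. Its p-values cannot therefore be taken as support for a difference. Ccl8, a monocyte chemokine encoded near Ccl2, was at 5.57 CPM in control replicate 2 and 2.66 and 3.36 CPM in DM+SGLT2i but at 0.0421 to 0.378 CPM in the other 4 libraries, the same split as for the fibroblast and pericyte markers. Cxcl2 and Cxcl5, neutrophil attractants like Cxcl1, were at 0.235 CPM or less in every library. With control replicate 2 left out, DM-22 versus C had 3 higher and 1 lower at the unadjusted threshold, beside 25.2% of all genes. The median of the 14 turned from −0.34 to 0.24. In DM+SGLT2i versus C, 6 were then higher and 1 lower, beside 17.9% of all genes, and the median went from 0.12 to 0.57.

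Of 27 other cytokines, 17 were listed and 11 tested. The shares of all genes passing the unadjusted threshold with all controls were 4.47% in DM-22 versus C and 3.91% in DM+SGLT2i versus DM-22. Clcf1, a cytokine of the interleukin 6 family, was lowest in DM-22 at 1.96 and 1.39 CPM, against 3.79, 3.73 and 5.92 CPM in the controls (log2 fold change −1.18, unadjusted p = 0.020) and 6.18 and 2.60 CPM in DM+SGLT2i (1.08 versus DM-22, unadjusted p = 0.040). Tnfsf10, the death ligand TRAIL, was at 49.4 and 28.9 CPM in DM-22 against 51.0 to 62.9 CPM in the controls (log2 fold change −0.59, unadjusted p = 0.049). Tnf, a main inducer of the inflammatory chemokines, was at 0.0231 to 0.275 CPM, below the filter. When control replicate 2 was left out, DM-22 versus C had 0 higher and 3 lower at the unadjusted threshold, beside 25.2% of all genes. The median of the 11 went from −0.54 to −0.22. In DM+SGLT2i versus C, 2 were then higher and 1 lower, beside 17.9% of all genes, and the median went from 0.05 to 0.38.

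Of 18 NF-kB and STAT3 response genes, all tested, 3 passed the unadjusted threshold in DM-22 versus C, all lower: Nfkbiz, a co-factor of NF-kB (2.12 and 1.57 CPM against 3.63, 6.29 and 15.7 CPM, log2 fold change −1.72, unadjusted p = 0.023), Zc3h12a, an RNase that degrades cytokine mRNAs (1.39 and 1.13 CPM against 2.07, 3.79 and 6.82 CPM, −1.30, unadjusted p = 0.034) and Birc3 (−0.45, unadjusted p = 0.047). Of all genes tested, 4.47% passed that threshold in DM-22 versus C and 3.91% in DM+SGLT2i versus DM-22, in either direction. The highest library for Nfkbiz and Zc3h12a was control replicate 9, the library in which Cxcl1 and Il1b were highest. Zfp36, whose protein degrades AU-rich cytokine mRNAs, was at 398 CPM there and at 25.8 to 72.4 CPM in the other 6 libraries. In DM+SGLT2i versus DM-22, Birc3 was higher (0.55, unadjusted p = 0.032) and the median of the 18 was 0.38. Leaving out control replicate 2 gave 1 higher and 2 lower in DM-22 versus C at the unadjusted threshold, beside 25.2% of all genes. The median of the 18 turned from −0.23 to 0.06. In DM+SGLT2i versus C, 5 were then higher and 0 lower, beside 17.9% of all genes, and the median went from 0.11 to 0.27.

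Of 18 interferon response genes, 16 were listed and 15 tested. Beside them, 4.47% of all genes passed the unadjusted threshold in DM-22 versus C and 3.91% in DM+SGLT2i versus DM-22, with all controls. Stat2, a subunit of the interferon-activated factor, was lower in DM-22 than in C (12.8 and 10.5 CPM against 25.3, 17.4 and 17.1 CPM, log2 fold change −0.74, unadjusted p = 0.016) and higher in DM+SGLT2i than in DM-22 (0.77, unadjusted p = 0.020). No other member passed the unadjusted threshold in any of the 3 comparisons with all controls. Without control replicate 2, 4 of the 15 were higher and 1 lower in DM-22 versus C at the unadjusted threshold, with a median of 0.64 in place of −0.15, beside 25.2% of all genes tested that passed in either direction. In DM+SGLT2i versus C without that control, 9 of the 15 were higher and 0 lower, with a median of 1.10 in place of 0.39, beside 17.9% of all genes.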

How the data were processed

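Kidney RNA of 7 mice was sequenced, and groups and replicate numbers come from the sample labels. The submitters' processing notes name bcl2fastq, FastQC, Trim Galore, STAR, edgeR and build mm10. The authors deposited log2 values, for 17537 genes, of TMM-normalized CPM plus a small constant worth 2 reads on average, although the design had assumed CPM. The logarithm was undone and the constant, 0.0395 CPM or −4.66 on the log2 scale, subtracted to return to CPM. Dividing by the CPM of 1 read then gave whole reads (within 0.1) for 100% of the values. Genes with few reads had been removed, the smallest total being 10 reads.

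All 3 groups were fitted together with limma 3.58.1 in R 4.3.3 (spread modelled as a trend of level), using log2(CPM + 0.5) of the 13976 genes that reached 1 CPM in 2 or more libraries. Tests were two-sided, with Benjamini-Hochberg adjustment over all genes tested and a threshold of 0.05. Fold changes on this scale understate those of scarce genes. Ccl3 and Cxcl1 are from a fit without the filter. The members and gene lists were chosen with earlier results of these data known. All members are named. Receptors and inhibitors are named with their ligand, and from the other lists the 2 smallest unadjusted p-values under 0.05 in each direction, while Ccr1, Csf1, Il6st, Sdc1, Ptprz1, Casp1, Nlrp3, Adam10, Adam17, Mmp2, Ccl8, Cxcl2, Cxcl5, Tnf, Birc3 and Zfp36 were added after their values were seen or as background. Exon lengths (all annotated exon bases of a gene, each counted once) and positions are from GENCODE release M21 (GRCm38). The test was tried on simulated data. Nothing links the replicate numbers of different groups. The p-values set a difference between groups against the spread between mice within groups, which all groups in the fit share. Python 3.11.15, numpy 2.4.6, pandas 2.3.3 and matplotlib 3.10.9 were used otherwise.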

Additional observations from a re-analysis of the deposited data

How the results depend on the processing

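The 27 log2 fold changes (9 genes in 3 comparisons) were recomputed under 351 alternatives: voom, no filter, pseudocounts of 0.1 and 2, library totals without TMM, median-of-ratios scaling, fits of only the 2 groups compared, a replicate block and leaving out each library. Direction and side of the threshold were kept in 330 and the sign turned in 21, with 0 of the 9 genes passing the adjusted threshold in any. Ccl3 and Cxcl1, below the filter, were recomputed only with voom, the replicate block and each library left out. The smallest adjusted p was 0.205, 0.161 and 0.463 for DM-22 versus C, DM+SGLT2i versus C and DM+SGLT2i versus DM-22. Of the 14 values that turned, 13 did so only when a library was left out. In DM-22 versus C, leaving out 1 library gave −0.69 to 0.17 for Ccl2, −0.36 to 0.11 for Ccl3, −0.70 to 0.52 for Cxcl10, −0.34 to 0.12 for Il18 and −0.42 to 0.088 for Il34. In DM+SGLT2i versus C it gave −0.17 to 0.70 for Ccl2, −0.44 to 0.14 for Ccl3, −0.28 to 0.94 for Cxcl10 and −0.12 to 0.18 for Il18. In DM+SGLT2i versus DM-22 it gave −0.31 to 0.27 for Ccl3, −0.041 to 0.89 for Cxcl10, −0.14 to 0.64 for Cxcl12 and −0.090 to 0.37 for Il18. Il1b in that comparison turned from −0.03 to 0.044 with library totals in place of TMM. Where 1 library was left of a group, it was taken to vary like the others. The cause of these turns was not tested.

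DM-22 and DM+SGLT2i share the replicate numbers 1 and 2, but nothing in the labels ties them. Deviations of same-numbered libraries from their group means had a correlation of −0.04 across genes. With 2 libraries in each of these groups, the deviations of replicate 2 mirror those of replicate 1. The correlation is thus 1 contrast and cannot decide whether the numbers are linked. With the numbers as a replicate block, in a fit of the diabetic libraries alone, 696 genes passed an unadjusted p of 0.05 in DM+SGLT2i versus DM-22. In the main fit of all 7 libraries without the block, 547 passed. These 2 fits differ in libraries as well as in the block, so that the counts do not give the effect of the block. Adjustment left 0 genes passing in both, with 0 changes of call among the 9 genes. Counting error limits Ccl3 and Cxcl1, at 2 to 20 reads in 13 of their 14 values.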

Other observations

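A few messengers outside the described genes stood out by library. Mif, a cytokine stored in epithelium, had a mean of 323 CPM per kb, above every chemokine and interleukin described here, at 177 to 332 CPM. Ccl28, a mucosal chemokine, was at 52.4 CPM in control replicate 9, 6.87 and 9.31 CPM in the other controls, 23.8 and 26.9 CPM in DM-22 and 9.75 and 15.6 CPM in DM+SGLT2i, so that both DM-22 libraries lay above both DM+SGLT2i libraries (log2 fold change of DM+SGLT2i versus DM-22 −1.01, adjusted p from limma 0.881). Il15, which sustains NK cells and memory T cells, was at 16.5 and 20.5 CPM in control replicates 8 and 9 and at 6.32 to 8.63 CPM in the 4 diabetic libraries, with control replicate 2 at 6.45 CPM, among the diabetic values. These genes were chosen after their values were seen.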
